A study of Mus musculus with 9 samples.

Results

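The genes described here end the light response of the photoreceptor and return it to darkness. They are Grk1, Sag, Rcvrn, Rgs9, Gnb5, Gucy2e, Gucy2f, Guca1a, Guca1b and Pdc, chosen by gene symbol, and all 10 were found among the 21769 genes listed for each library. Each of the 10 passed the filter on low counts that left 14300 genes for testing. Polyadenylated RNA of whole mouse retina was sequenced in 9 libraries, each from 2 retinae, with 3 libraries per group, and the labels call the replicates biological. The rd10 mice, taken at postnatal day 61, carry a mutation of Pde6b, the rod phosphodiesterase beta subunit, and lose their rods; their retinae are labelled as degenerated. The retinae labelled GFP-expressing are labelled normal, and no promoter or cell type is given for the GFP. An age note names a line Gg13 at day 42, taken here to be the GFP group because the note gives the ages of both others. The wild type retinae, from day 48, are also labelled normal. Age coincided with genotype, so that the effects of the 2 cannot be told apart.

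In a rod, light turns rhodopsin into an active receptor that switches on the G protein transducin, which in turn activates a phosphodiesterase; cyclic GMP falls and the cation channel closes. Recovery needs each step to be turned off. The kinase encoded by Grk1 phosphorylates the active opsin and arrestin, encoded by Sag, then caps it, while recoverin (Rcvrn) holds the kinase back as long as calcium is high. A complex of Rgs9 and the G protein beta subunit Gnb5, anchored to the disc membrane by the product of Rgs9bp, speeds up GTP hydrolysis by transducin. When the channel closes calcium falls, and the calcium sensors encoded by Guca1a and Guca1b then switch on the membrane guanylyl cyclases Gucy2e and Gucy2f, which restore cyclic GMP. Phosducin (Pdc) binds the beta and gamma subunits of transducin. Several of these proteins work in cones as well as in rods.

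The start regions of the genes show short sequences that photoreceptor transcription factors are known to read. RefSeq windows on GRCm38.p6, 250 bases before to 50 bases after the start, were matched for 8 of the 10 genes, all but Rcvrn and Guca1b. For Rgs9, Gucy2f and Guca1a the bases after the start were not found in a GENCODE M21 transcript of the gene. Their start sites, and positions counted from them, are therefore less sure. The letters TAATCC, searched on both strands, are the core read by the homeodomain factors CRX and OTX2. They stood in 5 of the 8 windows, while 7.06% of 32851 windows of the same length in the table hold them. The letters TGCTGA, also searched on both strands, are part of the site read by the rod factor NRL. They stood in 3 of the 8 windows, and in 19.5% of the table's windows. The 2 strings share no overlap in these windows, and a match describes letters only. The windows of Gucy2f, Gucy2e, Gnb5 and Sag are printed because the 2 cyclases differed in rd10, Gnb5 kept the largest share of its wild type level there and Sag was the most abundant per length. Capitals mark either string, or its reverse complement where it lies on the other strand.
Gucy2f (chrX:142196887-142197186, minus strand): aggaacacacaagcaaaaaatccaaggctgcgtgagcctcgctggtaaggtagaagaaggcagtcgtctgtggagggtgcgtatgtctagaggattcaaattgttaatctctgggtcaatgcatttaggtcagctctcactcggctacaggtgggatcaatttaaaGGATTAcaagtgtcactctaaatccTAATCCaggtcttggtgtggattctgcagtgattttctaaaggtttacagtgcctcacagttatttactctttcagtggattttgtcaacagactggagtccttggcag
Gucy2e (chr11:69236973-69237272, minus strand): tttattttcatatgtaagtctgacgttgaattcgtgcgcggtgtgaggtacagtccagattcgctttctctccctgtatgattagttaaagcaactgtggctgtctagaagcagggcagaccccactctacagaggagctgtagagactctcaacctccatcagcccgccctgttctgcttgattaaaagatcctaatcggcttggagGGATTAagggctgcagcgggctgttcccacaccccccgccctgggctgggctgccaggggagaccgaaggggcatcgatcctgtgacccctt
Gnb5 (chr9:75306038-75306337, plus strand): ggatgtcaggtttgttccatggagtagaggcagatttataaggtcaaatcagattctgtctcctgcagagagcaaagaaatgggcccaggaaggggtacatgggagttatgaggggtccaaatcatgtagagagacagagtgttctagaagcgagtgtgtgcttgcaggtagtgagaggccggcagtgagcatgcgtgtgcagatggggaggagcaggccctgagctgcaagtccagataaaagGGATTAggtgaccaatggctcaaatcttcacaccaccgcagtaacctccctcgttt
Sag (chr1:87803430-87803729, plus strand): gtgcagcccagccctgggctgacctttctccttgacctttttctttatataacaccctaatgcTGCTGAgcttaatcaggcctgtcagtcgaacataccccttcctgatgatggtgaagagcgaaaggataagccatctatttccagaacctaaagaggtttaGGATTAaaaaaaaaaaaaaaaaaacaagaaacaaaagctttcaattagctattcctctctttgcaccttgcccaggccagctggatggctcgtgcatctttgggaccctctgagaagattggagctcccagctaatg
Gucy2f held the CRX core on both strands, beginning at positions -59 and -84 relative to the start, and Gucy2e held it at -42. In Gnb5 it began at -6. Sag was the only window with both strings, the CRX core at -87 and the NRL string at -187. Guca1a held the CRX core, Grk1 and Rgs9 held the NRL string, and Pdc held neither.

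Library totals ran from 9597635 to 12149448 counts, and levels are given as CPM, counts scaled to a common library total, with library sizes adjusted by edgeR's TMM (trimmed mean of M) factors, so that 1 CPM stood for 8.73 to 13.6 counts. Pde6b itself had 6.001, 22.5 and 30.1 CPM in the rd10 libraries, 3069, 3375 and 3195 CPM in the GFP libraries and 3086, 3686 and 2681 CPM in the wild type libraries, low in each library labelled rd10. In 4 libraries, rd10 2, GFP 1 and wild type 2 and 3, the summed level of 14 lens genes was between 2672 and 6300 CPM; in the other 5 it was 48.9 to 140 CPM. Wild type 3 and GFP 2 also differed from the other libraries of their groups in a way that followed exon length, described with the GFP comparison. No gene of the rod, cone, ON bipolar or lens lists was at 0 throughout a group. The summed level of 11 rod genes, none of them among the 10, was 359 to 692 CPM in rd10, 42628 to 47673 CPM in GFP and 38240 to 53924 CPM in wild type. That of 11 cone genes was 1965 to 2009 CPM in rd10, 1582 to 2120 CPM in GFP and 1869 to 2366 CPM in wild type.

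All 10 genes were lower in rd10 retinae than in either normal group. Together they took 0.116 to 0.148% of all counts in the rd10 libraries, 1.62 to 1.98% in the GFP libraries and 1.79 to 1.97% in the wild type libraries. In edgeR's quasi-likelihood test, with p-values adjusted by the Benjamini-Hochberg method over the 14300 genes, all 10 passed an adjusted p of 0.05 as lower in rd10 than in wild type, against a background of 13.9% of all tested genes. Against GFP all 10 passed as well, where 15% of all tested genes did; both comparisons share the rd10 libraries. For each of the 10, every rd10 library lay below every GFP and every wild type library, as it did for 24.4% of all tested genes against wild type and 23.1% against GFP. The median log2 difference of the 10 was -4.49 against wild type and -4.47 against GFP, where the medians over all tested genes were -0.03 and -0.02. Scaling by library totals alone moved those all-gene medians to 0.25 and 0.31. At least 8-fold lower against wild type were 8 of the 10, all but Rgs9 and Gnb5, and 1.32% of all tested genes; against GFP the same 8 were, and 1.31% of all tested genes. Of the 11 rod genes all were called lower against wild type, with a median of -6.30, and Slc24a1, the rod sodium calcium exchanger that lowers calcium in light, was 78.8-fold lower. Across all tested genes 14.5% were called higher against wild type and 15.2% against GFP. Of the 11 cone genes 2 were called higher and 1 lower, with a median of 0.11; the 1 lower was Opn1sw, the short wavelength opsin (log2 -1.15, adjusted p = 3.92e-04), which had a log2 difference of -1.07 without the 4 libraries high in lens genes (adjusted p = 0.0894, with 1 wild type library left). The 2 cone genes called higher became 5 with scaling by library totals, 3 without GFP 1 or GFP 2, 1 without wild type 2 and 0 without those 4 libraries, and the 1 lower became 2 without wild type 1. Of 10 ON bipolar genes 6 were called higher and none lower, with a median of 0.96; without the same 4 libraries none was called and the median was 0.89. Of the 14 lens genes none was called. In whole retina, fewer cells of a type and less RNA per cell cannot be told apart. The rod, cone and lens levels above move with the rd10 group or with single libraries, and their part in these results was not tested; without the 4 libraries high in lens genes, all 10 genes were still called lower in both comparisons, with the lone wild type library left assumed to vary like the others.

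**Figure D1:**
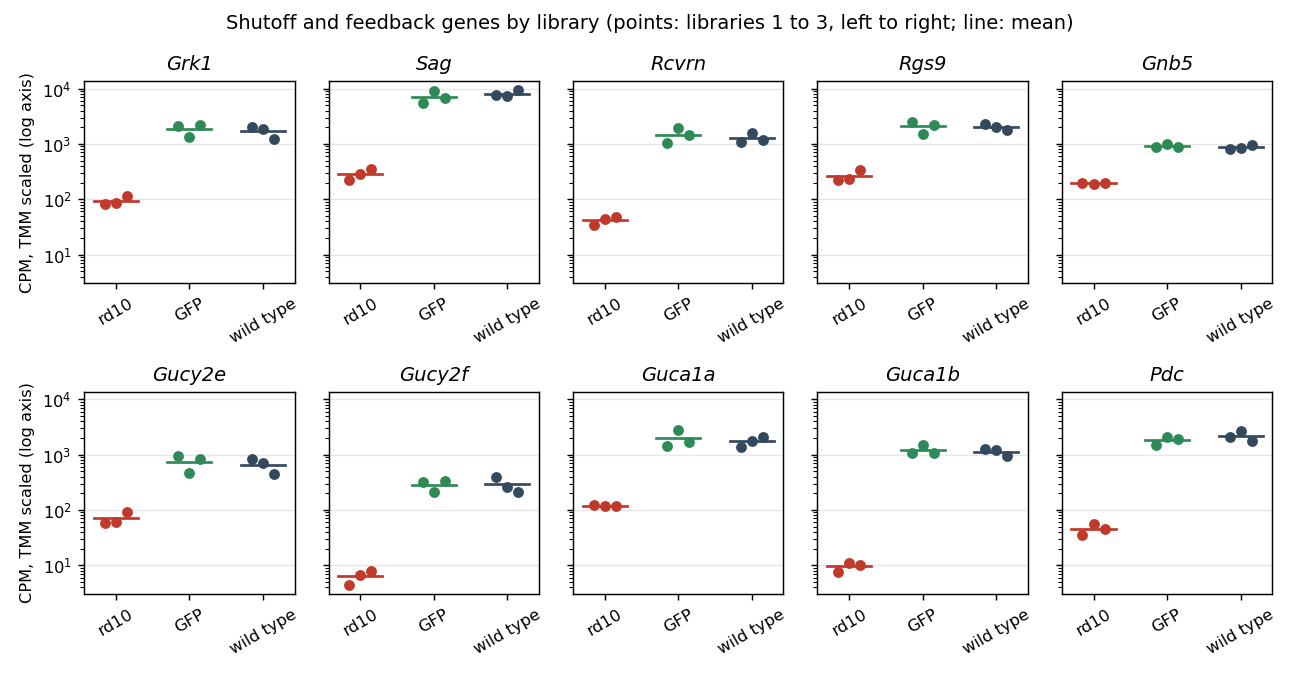
Level of each of the 10 genes in every library (CPM, log axis), with rd10, GFP and wild type from left to right; points are libraries and bars are group means. The 3 rd10 points lie below all 6 normal points in every panel, from 4.42 to 7.74 CPM for Gucy2f up to 225 to 356 CPM for Sag.

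**Figure D2:**
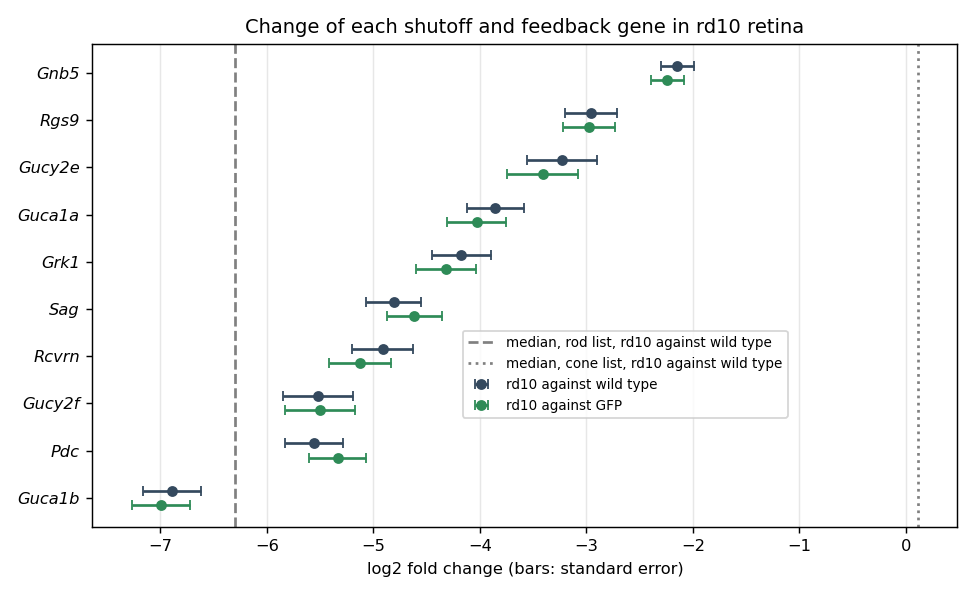
Log2 fold change of each of the 10 genes in rd10 against wild type and in rd10 against GFP, with the standard error of the edgeR fit as bars; dashed and dotted lines mark the medians of the rod list (-6.30) and the cone list (0.11) against wild type. The values run from -7.00 for Guca1b to -2.15 for Gnb5, and 9 of the 10 genes lie between the medians.

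The kinase, the arrestin and recoverin act at the level of rhodopsin, and all 3 genes were 18.1-fold or more below wild type in rd10. Sag, the arrestin that blocks phosphorylated rhodopsin (mm9 chr1:89700255-89741732, plus strand), had 225, 287 and 356 CPM in rd10, 5589, 8883 and 6833 CPM in GFP, and 7769, 7212 and 9337 CPM in wild type. The rd10 libraries lay far under both normal groups, and GFP and wild type overlapped. It was 28.0-fold lower in rd10 than in wild type (log2 -4.81, SE 0.26, adjusted p = 7.28e-07) and 24.5-fold lower than in GFP (adjusted p = 7.78e-07). Grk1, the opsin kinase (chr8:13405081-13421949, plus strand), had 83.0, 86.5 and 114 CPM in rd10, 2120.3, 1352 and 2179.5 CPM in GFP, and 2046, 1825 and 1249.9 CPM in wild type. GFP 2 and wild type 3 stood below the rest of their groups, yet all 6 normal libraries were more than 10 times the highest rd10 value. The difference was 18.1-fold against wild type (log2 -4.18, SE 0.28, adjusted p = 2.51e-06) and 19.96-fold against GFP (adjusted p = 1.88e-06). Rcvrn, the calcium sensor that restrains the kinase (chr11:67508828-67516857, plus strand), had 34.1, 44.6 and 47.6 CPM in rd10, 1041, 1919 and 1445 CPM in GFP, and 1071, 1552 and 1177 CPM in wild type. Here too the rd10 libraries stood apart and the normal groups overlapped. Rcvrn was 30.1-fold lower than in wild type (log2 -4.91, SE 0.29, adjusted p = 1.12e-06) and 34.9-fold lower than in GFP (adjusted p = 8.33e-07).

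Relatives of these genes outside the photoreceptor cascade were counted against the 13.9% of all tested genes called lower than in wild type and the 14.5% called higher. Of 7 other receptor kinases and arrestins (Adrbk1, Adrbk2, Grk4, Grk5, Grk6, Arrb1 and Arrb2), none was called lower in rd10 than in wild type and the median log2 difference was -0.06. Adrbk2, a kinase of many G protein coupled receptors, was called higher (log2 0.80, adjusted p = 0.0238), as was Arrb1, a beta arrestin (log2 0.91, adjusted p = 0.0432). Neither call was firm: Adrbk2 had an adjusted p of 0.0578, 0.0803, 0.0821 or 0.0592 without rd10 2, rd10 3, wild type 2 or wild type 3, and that of Arrb1 lay between 0.0559 and 0.143 without GFP 3 or any single rd10 or wild type library. Arr3, the cone arrestin, named after its value was seen, had a log2 difference of -0.21 (adjusted p = 0.638). Among 6 neuronal calcium sensors outside the photoresponse (Hpca, Hpcal1, Hpcal4, Ncald, Ncs1 and Vsnl1), 4 were called higher and 1 lower, with a median of 0.63. The 4 became 2 without rd10 1 or rd10 3 and 0 without the 4 libraries high in lens genes, where the median was 0.55 and none was called lower. Ncald was higher by 0.85 on the log2 scale (adjusted p = 0.00218) and Hpcal1 lower by a log2 difference of -0.84 (adjusted p = 0.0116). Without those 4 libraries, which leaves 1 wild type library, the log2 difference was 0.78 for Ncald (adjusted p = 0.222) and -0.59 for Hpcal1 (adjusted p = 0.333). For Hpcal1 the adjusted p was 0.0512 without rd10 2 alone and 0.0566 with scaling by library totals.

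In the complex that shuts off transducin, Rgs9 and Gnb5 kept more of their level, by group means, than any other of the 10 genes. Rgs9, the GTPase accelerator (chr11:109086669-109159495, minus strand), had 225, 228 and 336 CPM in rd10, 2498, 1536 and 2179 CPM in GFP, and 2322, 2059 and 1749 CPM in wild type. The rd10 libraries did not overlap the normal ones, and 1 of them stood above the other 2. It was 7.77-fold lower in rd10 than in wild type (log2 -2.96, SE 0.25, adjusted p = 1.29e-05) and 7.87-fold lower than in GFP (adjusted p = 1.17e-05). Gnb5, its obligate beta subunit partner (chr9:75159202-75193478, plus strand), had 198, 187 and 199.8 CPM in rd10, 889, 1007 and 869.8 CPM in GFP, and 797, 859 and 937 CPM in wild type. The spread within each group was small and the rd10 group stood clear of both others. The difference was 4.43-fold against wild type (log2 -2.15, SE 0.15, adjusted p = 4.15e-06) and 4.72-fold against GFP (adjusted p = 3e-06).

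Gnb5 also pairs with Rgs6, Rgs7 and Rgs11, which serve bipolar cells and other neurons, and these partners were listed together with the anchors. Of the 7 genes of that list, 4 were called higher in rd10 than in wild type, 1 lower and 2 neither, with a median log2 difference of 0.79. Across all tested genes 14.5% were called higher and 13.9% lower. The 4 were Rgs7, Rgs7bp, Gpr158 and Gpr179, and the 2 not called were Rgs6 and Rgs11. The 4 became 2 without rd10 1, rd10 2, rd10 3 or wild type 3, and 0 without the 4 libraries high in lens genes, where the median was 0.50. The 1 lower was Rgs9bp, the photoreceptor anchor of Rgs9, with 51.5, 50.8 and 53.5 CPM in rd10, 817, 712 and 756 CPM in GFP, and 909, 648 and 562 CPM in wild type. It was 13.6-fold lower than in wild type (log2 -3.77, adjusted p = 8.6e-07) and kept that call under all 19 alternatives. On the log2 scale Rgs7 was higher by 0.72 (adjusted p = 0.00784) and Gpr179, the receptor that holds Rgs7 and Rgs11 at the ON bipolar dendrite, by 1.09 (adjusted p = 0.00392). Without the 4 libraries high in lens genes Rgs7 was at 0.83 (adjusted p = 0.182) and Gpr179 at 0.86 (adjusted p = 0.234), differences of like size that no longer passed with 1 wild type library left. The summed level of 10 ON bipolar genes was 2912 to 3561 CPM in rd10, 1941 to 2091 CPM in GFP and 1748 to 2090 CPM in wild type; its part in the level of Gnb5 was not tested. Within libraries, the count ratio of Rgs9 to Gnb5 was 1.13, 1.22 and 1.68 in rd10, 2.81, 1.53 and 2.51 in GFP, and 2.92, 2.40 and 1.87 in wild type. The rd10 ratios lay below every wild type ratio and overlapped those of GFP. The ratio of Rgs9 to Rgs9bp was 4.37, 4.50 and 6.28 in rd10, 3.06, 2.16 and 2.88 in GFP, and 2.56, 3.17 and 3.11 in wild type, with all rd10 libraries above all others.

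The 2 cyclases differed in how much of each remained. Gucy2e (chr11:69031619-69050524, minus strand), the cyclase found in both rods and cones of mice, had 57.1, 61.5 and 92.4 CPM in rd10, 931, 473 and 842 CPM in GFP, and 826, 711 and 444 CPM in wild type. The lowest normal values, in GFP 2 and wild type 3, were still more than 4 times the highest rd10 value. Gucy2e was 9.38-fold lower in rd10 than in wild type (log2 -3.23, SE 0.33, adjusted p = 6.54e-05) and 10.6-fold lower than in GFP (adjusted p = 4.24e-05). Gucy2f (chrX:138513832-138631479, minus strand), a rod cyclase in mice, had 4.42, 6.76 and 7.74 CPM in rd10, from 56, 84 and 105 counts, against 315, 214 and 329 CPM in GFP and 390.0, 264 and 215 CPM in wild type. Few counts stand behind each rd10 value, and none of them came near a normal library. It was 45.8-fold lower than in wild type (log2 -5.52, SE 0.33, adjusted p = 1.14e-06) and 45.2-fold lower than in GFP (adjusted p = 1.13e-06).

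The 2 activating proteins were further apart than the cyclases they bind. Guca1a (chr17:47531507-47537533, minus strand) had 121, 119 and 118 CPM in rd10, 1445, 2759 and 1665 CPM in GFP, and 1401, 1726 and 2064 CPM in wild type. The rd10 libraries were nearly equal and lay below all others. It was 14.5-fold lower in rd10 than in wild type (log2 -3.85, SE 0.27, adjusted p = 3.81e-06) and 16.4-fold lower than in GFP (adjusted p = 2.81e-06). Guca1b (chr17:47522342-47529916, plus strand) had 7.502, 11.02 and 10.03 CPM in rd10, from 95, 137 and 136 counts, against 1065, 1502 and 1082 CPM in GFP and 1257, 1205 and 933 CPM in wild type. No other of the 10 genes was so far below the normal groups. It was 119-fold lower than in wild type (log2 -6.89, SE 0.27, adjusted p = 2.49e-07), the 14th lowest difference of the 14300 genes, and 128-fold lower than in GFP (adjusted p = 2.22e-07), the 15th lowest. The 2 genes are neighbours, transcribed toward each other with 1590 bases between their ends, and none of the 10 genes overlaps another listed gene.

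Ratios of counts within a library leave scaling between libraries aside. Guca1a over Guca1b was 16.2, 10.8 and 11.8 in rd10, 1.36, 1.84 and 1.54 in GFP, and 1.11, 1.43 and 2.21 in wild type. The geometric mean ratio was 8.36-fold higher in rd10 than in wild type and 8.13-fold higher than in GFP. Gucy2e over Gucy2f was 12.9, 9.11 and 11.9 in rd10, 2.95, 2.22 and 2.56 in GFP, and 2.12, 2.69 and 2.07 in wild type, 4.92-fold and 4.37-fold higher in rd10. In both pairs the rd10 libraries lay above all 6 normal libraries. Across the 4 ratios and 3 pairs of groups, 12 comparisons in all, the exact two-sided permutation test gave p = 0.1 (0.171 after Benjamini-Hochberg adjustment) for 7 of the 8 that involve rd10, the smallest p that 3 against 3 libraries allow. The exception was Rgs9 over Gnb5 against GFP, with an exact permutation p = 0.2, and the 4 comparisons of GFP with wild type gave exact p-values between 0.4 and 0.9. The design cannot reach p under 0.05 here.

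**Figure D3:**
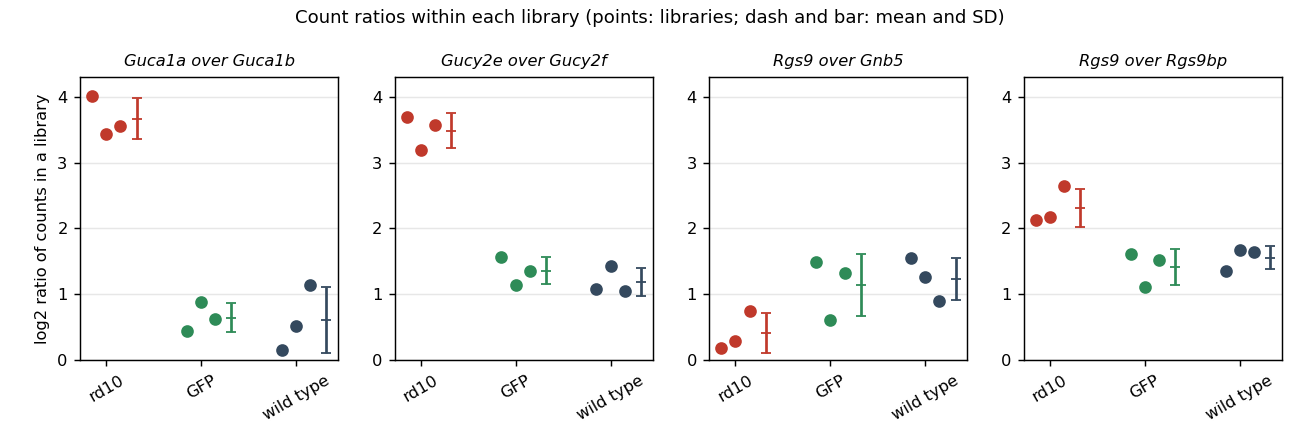
Log2 ratios of counts within each library for Guca1a over Guca1b, Gucy2e over Gucy2f, Rgs9 over Gnb5 and Rgs9 over Rgs9bp, 1 point per library with the mean and SD beside them, and rd10, GFP and wild type from left to right. The rd10 points, at ratios of 10.8 to 16.2 for Guca1a over Guca1b and 9.11 to 12.9 for Gucy2e over Gucy2f, lie above every normal point, while those for Rgs9 over Gnb5 reach 1.68 and overlap GFP.

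Other membrane guanylyl cyclases, listed with Npr3, a related receptor that is not a cyclase, gave little to compare. Of 6 listed (Npr1, Npr2, Npr3, Gucy2c, Gucy2d and Gucy2g), 4 passed the filter on low counts, Npr3 among them. Of these, 1 was called higher in rd10 than in wild type and none lower, where 14.5% and 13.9% of all tested genes were. The 1 was Npr2, a natriuretic peptide receptor (log2 0.76, adjusted p = 0.00627), which was at 0.73 without the 4 libraries high in lens genes (adjusted p = 0.219). Ppef2 is a phosphatase of photoreceptors related to the fly enzyme that dephosphorylates rhodopsin. It had 19.3, 24.9 and 32.2 CPM in rd10, 229, 158 and 211 CPM in GFP, and 196, 189 and 186 CPM in wild type, a 7.48-fold lower level than in wild type (log2 -2.90, adjusted p = 5.59e-06), and stayed called under all 19 alternatives.

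Pdc, which binds the transducin beta and gamma subunits (chr1:152166547-152181036, plus strand), had 35.6, 55.9 and 45.2 CPM in rd10, 1484, 2113 and 1925 CPM in GFP, and 2072, 2625 and 1739 CPM in wild type. The rd10 values were a small fraction of any normal value. Pdc was 47.1-fold lower in rd10 than in wild type (log2 -5.56, SE 0.27, adjusted p = 4.56e-07) and 40.4-fold lower than in GFP (adjusted p = 5.08e-07). Its binding partner Gnb1, the rod transducin beta subunit, which many other cells also use, had 465, 467 and 502 CPM in rd10, 5274, 7098 and 6898 CPM in GFP, and 6427, 7416 and 5388 CPM in wild type. Gnb1 was 13.4-fold lower than in wild type (log2 -3.75, adjusted p = 6.62e-07) and kept its call under all 19 alternatives. The list of phosducin-like proteins and other beta subunits held 6 genes, of which 5 were tested, 2 called lower and 1 higher. Across all tested genes 13.9% were called lower than in wild type and 14.5% higher. Gnb2, a widely used beta subunit, was higher (log2 0.72, adjusted p = 0.00949), and at 0.9996 without the 4 libraries high in lens genes (adjusted p = 0.126). Pdcl3 was the other called lower (log2 -0.59, adjusted p = 0.0266); that call ended on scaling by library totals (adjusted p = 0.216) and without rd10 1, 2 or 3 or wild type 2 or 3 (adjusted p = 0.0621, 0.0625, 0.111, 0.103 and 0.0613).

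The share of the wild type mean that remained in rd10 divided the 10 genes widely. It was 0.841 ± 0.160% for Guca1b, 2.12 ± 0.473% for Pdc, 2.18 ± 0.589% for Gucy2f, 3.32 ± 0.558% for Rcvrn and 3.57 ± 0.803% for Sag (SD over the 3 rd10 libraries). It was 5.53 ± 0.985% for Grk1, 6.91 ± 0.0951% for Guca1a, 10.7 ± 2.91% for Gucy2e, 12.9 ± 3.10% for Rgs9 and 22.6 ± 0.793% for Gnb5. The SDs cover the rd10 libraries only. In that order, the rd10 libraries of Pdc and Gucy2f overlapped, as did those of Rcvrn and Sag and those of Gucy2e and Rgs9. Those of the other neighbours did not, which does not settle their order, since the spread of the wild type libraries is left out. The fitted 95% intervals of the log2 difference from wild type overlapped for all neighbours except Guca1b (-7.49 to -6.30) and Pdc (-6.16 to -4.96). After removal of the trend with exon length, Gucy2e and Guca1a had the same log2 difference of -3.52 against wild type, so their order was not settled. The median over the 10 was 4.55% of wild type. The 11 rod genes had a median of 1.27% and ran from 0.552 to 4.75%. The 11 cone genes had a median of 108% and ran from 45.2% for Opn1sw to 195% for Slc24a2. As a percent of the GFP mean, the cone genes had a median of 112% and ran from 53.1% for Opn1sw to 331% for Pde6c. Of the 10, Grk1, Guca1a, Gucy2e, Rgs9 and Gnb5 stood above the highest rod gene.

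**Figure D4:**
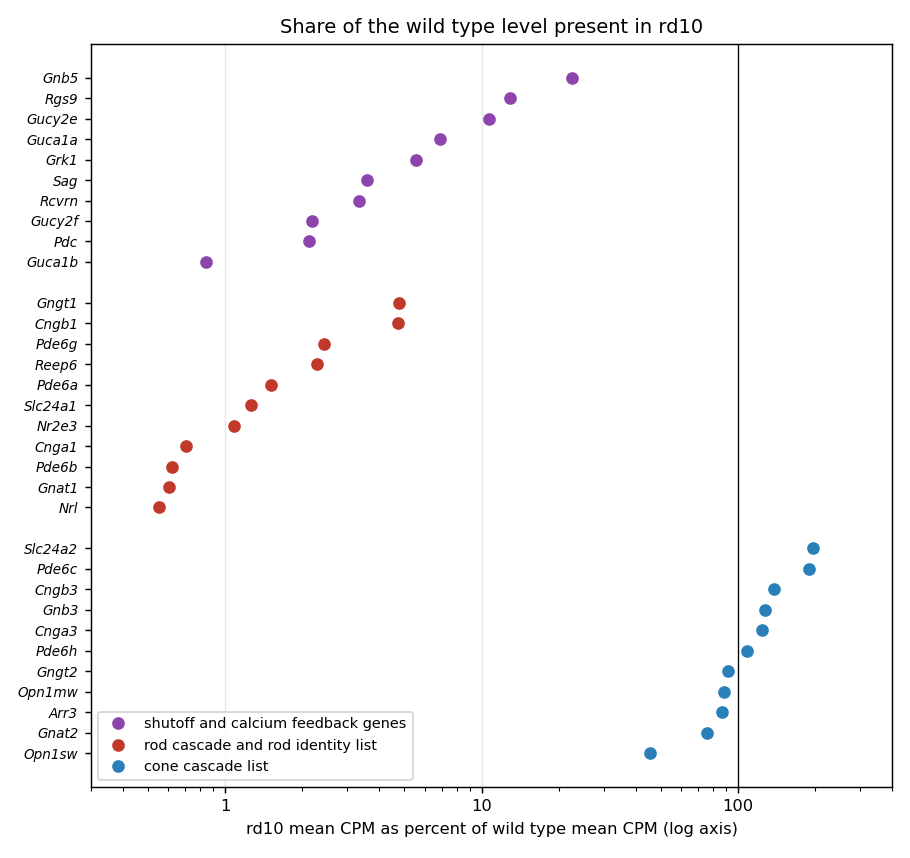
Mean level in rd10 as a percent of the mean in wild type (log axis, means of 3 libraries each), 1 point per gene, for the 10 shutoff and feedback genes, the 11 rod genes and the 11 cone genes; the line marks 100%. Guca1b lies among the lower rod genes and Gnb5, at 22.6% on average, between the rod genes and the cone genes.

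Each gene was also fitted relative to the rod list, with the natural log of the geometric mean of the 11 rod genes as each library's offset. Since that offset is itself low in rd10, almost all genes are higher on this scale: 99.6% of the 14300 genes were called higher against wild type and 99.7% against GFP, while 0.049% and 0.042% were called lower. Of the 10 genes, 7 were called higher than the rod list against wild type and 8 against GFP, fewer than the background. Those not called higher were Guca1b (log2 -0.59 relative to the rod list, adjusted p = 0.172), Gucy2f (0.73, adjusted p = 0.116) and Pdc (0.77, adjusted p = 0.0576) against wild type, among 54 genes or 0.378% of all tested. Against GFP they were Guca1b (-0.59, adjusted p = 0.173) and Gucy2f (0.83, adjusted p = 0.0751), among 45 genes or 0.315%. Gnb5 was farthest above the list, by 4.24 (SE 0.49, adjusted p = 4.59e-18), and Rgs9 was above it by 3.37 (SE 0.44, adjusted p = 1.68e-14). Gucy2e was above it by 3.09 (adjusted p = 7.32e-11), Guca1a by 2.53 (adjusted p = 3.55e-09) and Grk1 by 2.17 (adjusted p = 3.06e-07). Sag and Rcvrn were closer, at 1.46 (adjusted p = 3.6e-05) and 1.42 (adjusted p = 8.83e-04). In the same fit the 11 rod genes themselves ran from -1.42 to 2.05 against wild type, with 4 called higher and 4 lower. Against GFP they ran from -1.46 to 2.03, again with 4 called higher and 4 lower. Sag and Rcvrn lay inside these ranges and Grk1 just above them, so a call here does not by itself set a gene apart from the rod genes. The error of the offset itself was not carried into these p-values, and they are not comparable with those of the main fit. In the main edgeR test Gnb5 differed from wild type by -2.15 (SE 0.15, adjusted p = 4.15e-06). Relative to the rod list its difference was smaller for its SE, yet its adjusted p was far lower. The very small p-values of this fit are therefore no measure of how firm a difference is. The geometric mean of the rod list was 16.7 CPM in rd10 1, against 35.2 and 41.1 CPM in rd10 2 and 3; without rd10 1, Guca1b was called lower than the list (-0.85, adjusted p = 0.0027) and Pdc higher (0.52, adjusted p = 0.028) against wild type. Pdc was also called higher without rd10 3 (0.98, adjusted p = 0.0158).

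The mix of the 10 transcripts differed between rd10 and the normal groups. Sag made up 25.3% of their summed counts in rd10, 36.1% in GFP and 40.7% in wild type, as group means. Rgs9 made up 23.0% in rd10, 10.9% in GFP and 10.2% in wild type, and Gnb5 17.4% in rd10, 4.75% in GFP and 4.33% in wild type. Guca1b made up 0.842% in rd10, 6.21% in GFP and 5.67% in wild type. Grk1 and Guca1a took similar shares in all groups, between 8.30 and 10.7%.

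Levels can be set against each other between genes only per length, here as CPM per kilobase of annotated exons. Sag came first in every group, at 167 ± 37.6 CPM per kilobase in rd10, 4107 ± 962 in GFP and 4688 ± 637 in wild type (SD, n = 3 each). Guca1a followed in every group, at 137 ± 1.89 CPM per kilobase in rd10, 2241 ± 806 in GFP and 1982 ± 380.0 in wild type. The values of these 2 genes overlapped over the rd10 libraries and did not over the GFP or the wild type libraries. Gucy2f was last in every group, at 0.777 CPM per kilobase in rd10, 35.2 in GFP and 35.6 in wild type. Gnb5 took the third place in rd10, at 83.6 CPM per kilobase, and the sixth in GFP and wild type, at 395 and 370.5. Guca1b took the ninth place in rd10, at 3.899 CPM per kilobase, and the fifth in the normal groups, at 498 and 464. The exon lengths came from GENCODE M21 and not from the authors' annotation, so an order between genes of like level could change with other gene models.

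Among the rd10 libraries, rd10 3 held the highest value for 7 of the 10 genes and rd10 1 the lowest for 8. The coefficient of variation over the 3 libraries was 1.38% for Guca1a and 3.51% for Gnb5, and between 16.8 and 27.3% for the other 8. The geometric mean of the rod list was also lowest in rd10 1 and highest in rd10 3. With a single library of each, these differences carry no test.

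The GFP and wild type groups, both labelled normal, gave no call for any of the 10 genes. In the edgeR test the adjusted p was 1 for each, and 0% of all tested genes were called in either direction. At an unadjusted p under 0.05 there were 214 genes (1.5%), and DESeq2 called 2 genes lower and none higher. The 10 log2 differences lay between -0.22 for Pdc and 0.21 for Rcvrn, and the groups overlapped for all 10, while 3.99% of all tested genes had groups that did not. The tightest 95% interval was that of Gnb5, from -0.23 to 0.42, and the widest that of Gucy2e, from -0.49 to 0.85. These intervals leave room for differences of that size, so they do not show that the groups were alike.

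For each of the 10 genes, single libraries of a normal group differed from the rest of it by more than the group means differed. Across genes, these deviations followed the length of the transcript in most normal libraries. Setting each library against the mean of the other 2 of its group, Spearman's rho between the deviation and exon length over 14142 genes was 0.50 in GFP 1 and -0.54 in GFP 2, and 0.57 in wild type 1 and -0.48 in wild type 3. Over the 10 genes it was 0.89, -0.93, 0.96 and -0.92 in the same libraries, as a description, since the genes of a library share its preparation. In rd10 the values over all genes were -0.14, -0.33 and 0.34. Exon lengths ran from 0.873 kilobases for Guca1a to 8.345 kilobases for Gucy2e. The deviation of Gucy2e on the log2 scale was -0.90 in GFP 2 and -0.79 in wild type 3, and that of Grk1 -0.67 in GFP 2 and -0.63 in wild type 3. Guca1a, the shortest, deviated by 0.83 in GFP 2 and 0.41 in wild type 3, and Sag by 0.52 in GFP 2 and 0.32 in wild type 3. The longest transcripts were thus low and the shortest high in the same 2 libraries, except that Rcvrn deviated by -0.13 in wild type 3 and by 0.65 in GFP 2. Guca1b and Pdc, of middle length, also took opposite signs. They deviated by 0.48 and 0.32 in GFP 2 and by -0.40 and -0.42 in wild type 3. The part of this pattern in single ratios, such as Gucy2e to shorter genes, was not tested. Leaving out wild type 3 and GFP 2 together, the log2 difference of rd10 from wild type was -3.45 for Gucy2e, -4.36 for Grk1, -3.71 for Guca1a and -7.02 for Guca1b, each still called lower.

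**Figure D5:**
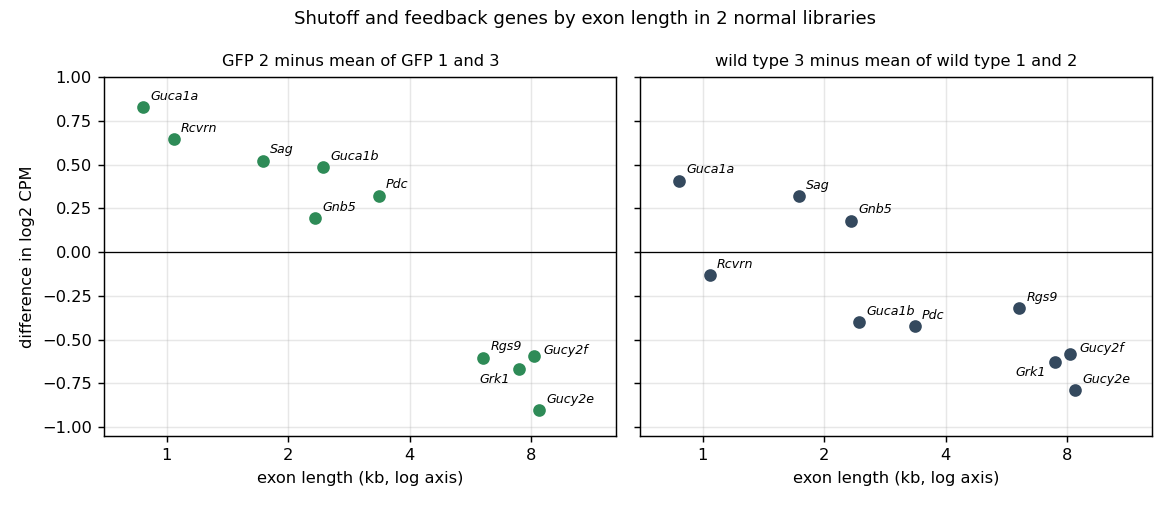
Difference in log2 CPM of each of the 10 genes between 1 library and the mean of the other 2 of its group, against exon length in kilobases (log axis), for GFP 2 (left) and wild type 3 (right). Guca1a, the shortest, lies at 0.83 and 0.41 and Gucy2e, the longest, at -0.90 and -0.79.

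The genes whose profiles over the 9 libraries came nearest to each of the 10 were found by a single measure. Likeness was the root mean square difference of log2 CPM after each gene's mean was removed, over 11702 other genes with a mean of at least 5 CPM, so that small values mean like profiles. Nearest to Gnb5 was Lrit2 (0.0941) and to Rgs9 Pitpnm3 (0.0997). Nearest to Gucy2e was Abca4 (0.140), the retinoid transporter of the outer segment, and to Guca1a Rtbdn (0.164). Nearest to Grk1 was Impg1 (0.182), a proteoglycan of the matrix around photoreceptors, to Rcvrn Rdh12 (0.184), a photoreceptor retinol dehydrogenase, and to Pdc Prph2 (0.198), a disc rim protein. Gucy2f was nearest to Rp1 (0.202), a protein of the photoreceptor axoneme, Sag to Ccdc24 (0.209) and Guca1b to Fscn2 (0.285), a photoreceptor actin bundling protein. Among the 10 genes themselves, Rgs9 and Gucy2e were closest, at 0.23, then Sag and Rcvrn at 0.29, and Gnb5 and Guca1b were farthest apart, at 2.24. The 9 points of each profile share their libraries, so a like profile holds the difference between rd10 and normal and the length pattern alike.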

How the data were processed

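Polyadenylated RNA of whole retina was sequenced in 9 libraries of 3 groups. The authors deposited 1 count per gene and library, read as raw counts because all values were whole numbers with different totals. The build was mm9, per the submitters' processing notes; the aligner, counter, annotation and strand setting are not given in the sources used here. The 10 genes, the lists and the tests were chosen with earlier results of these data known.

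Genes were filtered with filterByExpr (minimum count 10, minimum total 15), scaled by TMM and tested with edgeR 4.0.16 (R 4.3.3, limma 3.58.1), quasi-likelihood F-test, 1 model over 9 libraries, Benjamini-Hochberg adjustment over 14300 genes, threshold 0.05. Confidence intervals are those of the fit. DESeq2 1.42.0, other scalings, no filter, each library left out, the lens-rich libraries left out and a replicate block were alternatives; removal of the exon length trend was chosen after seeing the data. Exon lengths came from GENCODE M21, matched for 21407 of 21769 genes. The code was tested on simulated data. Ratios were tested by exact permutation with scipy 1.17.1. Profiles used log2 CPM with a prior count of 2. Named genes were the 10, their nearest profile, and per list the genes of lowest adjusted p. Chi-square per degree of freedom between replicates was 13.0 to 76.1, so they differed beyond counting noise.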

Additional observations from a re-analysis of the deposited data

How the results depend on the processing

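All 10 genes kept their lower call in rd10 under each of 19 alternatives against wild type and against GFP; the highest adjusted p was 0.00785, for Gnb5 against wild type. Counts over all genes moved more. Against wild type 2067 genes were higher and 1988 lower; scaling by library totals gave 3603 and 1079, leaving out the 4 libraries high in lens genes gave 86 and 457, and leaving out 1 library at a time gave 1269 to 2891 higher and 1186 to 2530 lower, both counts at 1369 or less without any single rd10 library, and 1279 higher without wild type 3. Against GFP 2174 were higher and 2138 lower; library totals gave 4040 and 1055, the 4 libraries left out gave 876 and 970, and 1 library left out gave 1298 to 2266 higher and 1305 to 2138 lower, both at 1416 or less without any single rd10 library, and 1353 higher without GFP 3. Relative to the rod list, 7 genes lower against wild type became 5 to 14 with 1 library left out, and 6 against GFP became 5 to 13 (14 and 13 without rd10 2), or 3 with an offset from Nrl, Nr2e3 and Reep6 alone. That offset called Gucy2f higher against wild type (1.11, adjusted p = 0.0451) and against GFP (1.23, adjusted p = 0.0272), and Pdc higher against wild type (1.17, adjusted p = 0.018). Against GFP, Guca1b was called lower than the list without rd10 1 (-0.85, adjusted p = 0.00274).

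Between GFP and wild type, DESeq2 called 2 genes lower, and with 1 library left out 0 to 4 were called higher (4 without GFP 3). No difference of the 10 genes was called, and several near 0 changed sign. Rgs9, at 0.02, became -0.015 with library totals, -0.0056 with upper quartile scaling and -0.0034 with the length trend removed. Without wild type 3 and GFP 2 together, Rcvrn became -0.077, Guca1a -0.0082 and Guca1b -0.20, and Pdc reached -0.46. Without the 4 libraries high in lens genes, Grk1 became -0.21, Sag 0.015, Rgs9 -0.32 and Gucy2e -0.33, and the moves reached 0.65 for Rcvrn, 0.66 for Guca1a and -0.52 for Gucy2f. With 1 library left out, Grk1 ran from -0.039 to 0.35, Rcvrn from -0.0049 to 0.42, Rgs9 from -0.13 to 0.22, Gucy2e from -0.037 to 0.45, Gucy2f from -0.19 to 0.28, Guca1a from -0.13 to 0.36 and Guca1b from -0.055 to 0.20. The cause of these changes was not tested.

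Deviations of same-numbered libraries from their group means correlated between -0.37 and 0.36, and those of differently numbered libraries between -0.43 and 0.48. The deviations within a group depend on each other, so these values cannot show whether the replicate numbers pair the libraries. With a replicate block, 1817 genes were higher and 1789 lower against wild type, 1996 and 1912 against GFP, and 0 and 0 between GFP and wild type. The block turned Rgs9 between GFP and wild type to -0.0068 and called Gucy2f higher than the rod list against GFP (0.86, adjusted p = 0.0332).

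Depth limits Gucy2f and Guca1b in rd10 most, with 56 to 137 counts per library. Leaving out libraries leaves groups with fewer samples, and where 1 wild type library remained it was assumed to vary like the other groups. Strand and gene models of the counting are not given here.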
